A study of Mus musculus with 4 samples.

Results

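Genes of blood coagulation and fibrinolysis were compared between livers of wild-type mice (WT) and of mice with a knockout of Fto (KO), the gene of an RNA demethylase. The set holds 33 genes listed by their known roles, and was looked up by GENCODE M21 symbol among the 37315 Ensembl genes of the deposited count tables. A row was found for 32 of them. These are 16 clotting factors, 9 inhibitors of clotting, 5 genes of fibrinolysis and its control, and 2 genes of the vitamin K cycle. Klkb1, which encodes plasma prekallikrein, had no row under its M21 identifier, and its expression was not analysed here.

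Each genotype had 2 libraries of polyadenylated liver RNA, and all mice were C57BL/6 animals of 23 weeks. The labels name no treatment, no sex and no construct or Cre line behind the knockout. They also leave unsaid whether the 2 libraries of a genotype are 2 animals, so the p-values below refer to the spread between libraries and that spread may be technical. In bulk tissue, fewer cells of a type and less RNA per cell cannot be told apart.

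Clotting runs through a cascade of serine proteases that circulate as inactive precursors. Tissue factor with factor VII starts it, factors XI, IX and X pass it on with the cofactors VIII and V, and thrombin at its end cuts soluble fibrinogen into fibrin. Antithrombin, the protein C system and tissue factor pathway inhibitor hold the cascade in check, and plasmin, made from plasminogen, dissolves the clot. Hepatocytes secrete most of these proteins, while von Willebrand factor, factor VIII, thrombomodulin and the plasminogen activator of tissue type come mainly from endothelium. Several factors and protein C, S and Z need vitamin K for the carboxylation that lets them bind calcium and membranes.

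Library totals lay between 39549592 and 44689114 counts. Reads of Fto numbered 1749 and 1292 in the WT pair and 607 and 486 in the KO pair, and its level fell by 1.57 on the log2 scale (SE 0.195, adjusted p = 0.0109, edgeR quasi-likelihood test with Benjamini-Hochberg adjustment over all tested genes). Whether the remaining KO reads lie in a deleted part cannot be read from gene counts. The 8 hepatocyte markers on the list, Alb and Ttr among them, were all tested and took 8.61% to 9.97% of each library. Levels are given as CPM, the counts of a gene scaled to a common library size after TMM normalisation.

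The 32 genes together took 2.68% and 2.53% of all counts in WT and 2.94% and 3.44% in KO. Levels between genes are compared as CPM per kilobase of the longest annotated transcript, a length that may exceed that of the main liver transcript. On that scale the WT mean ran from 1613 ± 205 for Fga and 1594 ± 4.62 for Fgg (SD, n = 2) down to 0.114 ± 0.00434 for Plat and 0.0122 ± 0.0172 for Serpina5. Plasminogen (Plg, 1144), the fibrinogen beta chain (Fgb, 909), kininogen 1 (Kng1, 883) and histidine-rich glycoprotein (Hrg, 623) followed the first 2. Among the cascade enzymes prothrombin (F2) stood at 579, factor XII (F12) at 257, factor X (F10) at 230, factor IX (F9) at 75.4, factor VII (F7) at 56.5 and factor XI (F11) at 24.3 CPM per kilobase in WT. F3, F8, Tfpi, Thbd and Vwf were all between 0.647 and 1.67. The genes whose proteins are known to come mainly from endothelium were thus near the bottom of the range.

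**Figure D1:**
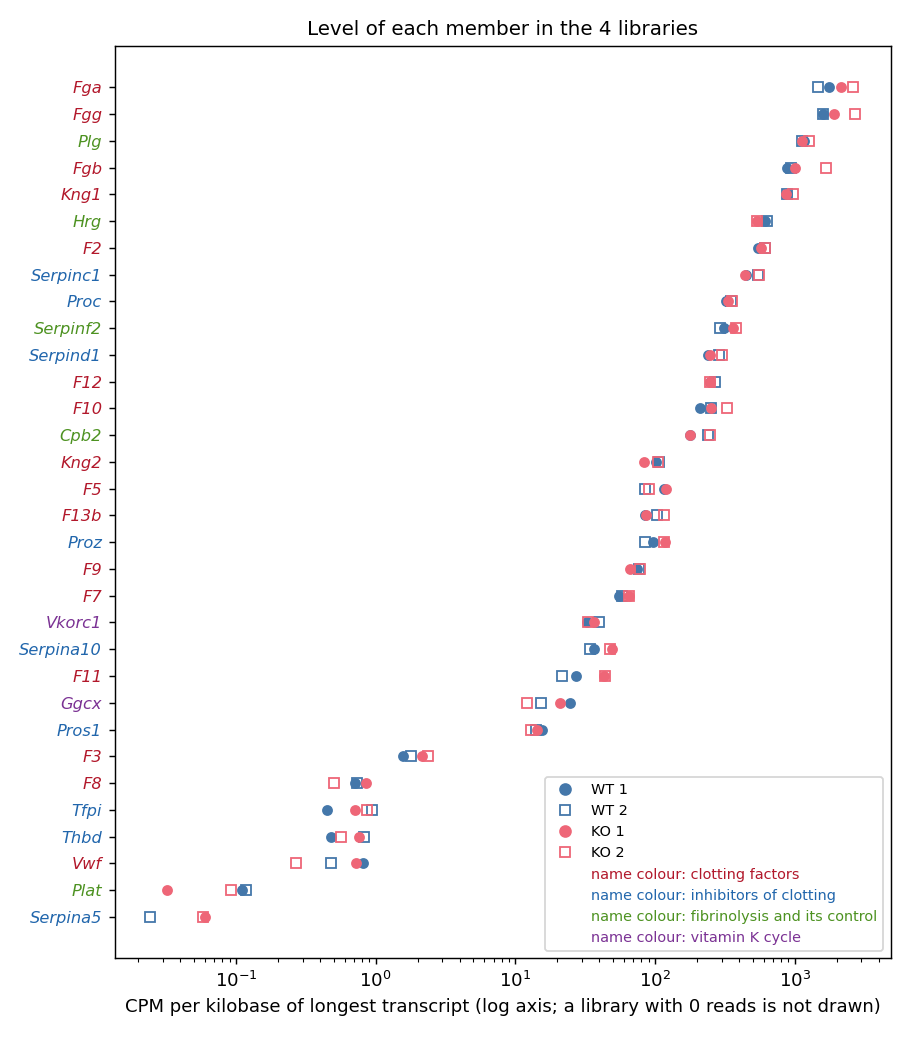
Level of each of the 32 genes in the 2 WT libraries (blue) and 2 KO libraries (red), as CPM per kilobase of longest transcript on a log axis; filled circles are replicate 1 and open squares replicate 2, gene names are coloured by role, and the library with 0 reads of Serpina5 is not drawn. Genes are ordered by WT mean, from Serpina5 at 0.0122 to Fga at 1613.

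No gene of the set passed the test. Of 31 genes that passed the filter on low counts, 0 were called by edgeR at an adjusted p under 0.05, where 1.91% of the 13836 tested genes were called. At an unadjusted p under 0.05 there were 4 of 31 (12.9%), namely F11, Fga, Fgg and Serpina10, all with the KO mean higher; over all tested genes the share was 13%. DESeq2 called 1, F11 (4.15% of all tested genes), and limma-voom called 0 (1.86% of all). The set therefore held no larger share of low p-values than the rest of the transcriptome.

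Fold changes of the set were small. The median size of the log2 fold change was 0.14, against 0.23 over all tested genes, and the median standard error was 0.192, against 0.235. For 22 of 31 genes (71.0%) the 95% interval of the fold change lay within a 2-fold difference in both directions, against 63.3% of all tested genes. The remaining 9 reach beyond 2-fold on at least one side, and a larger difference cannot be set aside for them at this replication. They are F11, Fga, Fgb, Fgg, F3 and Vwf among the clotting factors, Tfpi, Plat and Ggcx. In 9 of 31 genes (29.0%) both KO libraries were above both WT libraries, as in 21.6% of all tested genes, and in 2 of 31 (6.45%) both were below, as in 20.4% of all.

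**Figure D2:**
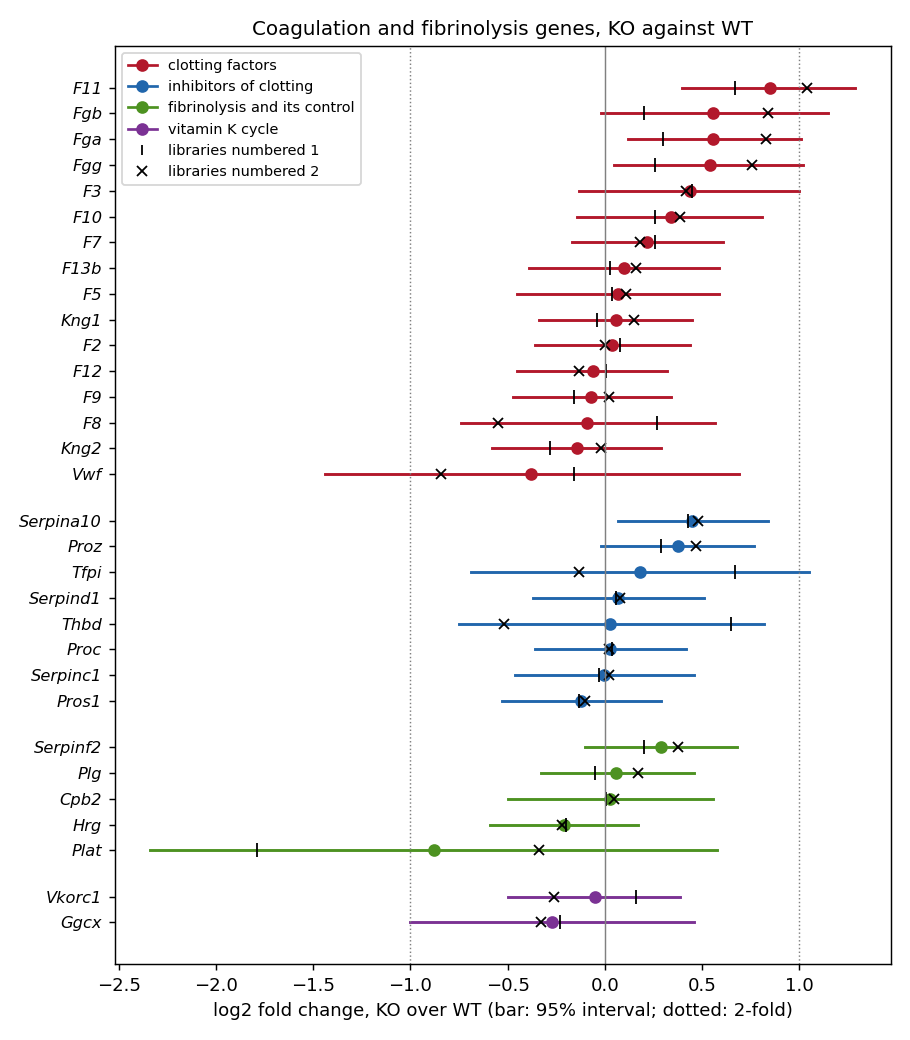
Log2 fold change of KO over WT for the 31 tested genes, by role; dots are the edgeR estimates, bars their 95% intervals, vertical ticks the KO over WT ratio of replicates 1 and crosses that of replicates 2. The intervals of F11, Fga, Fgg and Serpina10 do not reach 0, and no gene was called after adjustment.

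The 3 fibrinogen chains had nearly the same estimate. Fga, Fgb and Fgg encode the alpha, beta and gamma chains, which assemble in the hepatocyte in equal number, and they lie side by side on chromosome 3 in the order Fgg, Fga, Fgb, with 6.51 kb between Fga and Fgb (mm10). Fga stood at 4546 and 3798 CPM in WT and 5585 and 6748 CPM in KO. Fgb stood at 3350 and 3577 CPM in WT and 3838 and 6397 CPM in KO. Fgg stood at 2770 and 2782 CPM in WT and 3326 and 4723 CPM in KO. For each chain both KO libraries were above both WT libraries, and KO replicate 2 was the highest of the 4. The log2 fold changes were 0.56 for Fga (SE 0.192, adjusted p = 0.254, edgeR), 0.56 for Fgb (SE 0.252, adjusted p = 0.405) and 0.54 for Fgg (SE 0.210, adjusted p = 0.333), or 1.48-fold, 1.48-fold and 1.45-fold.

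The size of that difference changed with single libraries. For replicate 1 of KO over replicate 1 of WT the log2 ratios were 0.30, 0.20 and 0.26 for Fga, Fgb and Fgg, and for replicate 2 over replicate 2 they were 0.83, 0.84 and 0.76. Without KO replicate 2 the estimates were 0.41, 0.14 and 0.25, and without KO replicate 1 they were 0.70, 0.89 and 0.77, none of them called. For Fga the WT libraries moved the estimate as much, to 0.70 without WT replicate 1 and 0.43 without WT replicate 2, while for Fgb and Fgg it stayed between 0.52 and 0.61 without either. Summed, the chains took 1.09% and 0.978% of the counts in WT and 1.32% and 1.75% in KO. The other 29 genes of the set took 1.59% and 1.56% in WT and 1.62% and 1.69% in KO, so most of the difference in the summed share of the set lay in fibrinogen.

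The balance of the chains was alike in the genotypes. Per kilobase, Fga made up 41.6% of the chain transcripts in replicate 1 and 36.7% in replicate 2 of WT, and 42.5% and 37.3% in KO. Fgb made up 20.8% and 23.4% in WT and 19.8% and 24.0% in KO. Fgg made up 37.6% and 39.9% in WT and 37.6% and 38.8% in KO. Within each genotype the Fga share was lower in replicate 2, by more than the genotypes differed at the same number. The share of Fgb is tied to the length used for it, 3810 bases.

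Genes that accompany fibrinogen in the acute phase response were read beside it, as a list of 17 drawn up after the fibrinogen values had been seen. Of these, 13 had a positive log2 fold change, the median was 0.26, and 1 was called higher, where 1.91% of all tested genes were called. At an unadjusted p under 0.05 there were 8 of 17 (47.1%, against 13% of all). Both KO libraries were above both WT libraries for 8 of 17 (47.1%, against 21.6% of all) and below them for 1 of 17 (5.88%, against 20.4%). The gene called higher was Socs3, a feedback inhibitor of cytokine signalling. Its level was 4.15 and 3.15 CPM in WT and 8.67 and 10.6 CPM in KO (log2 fold change 1.40, SE 0.246, adjusted p = 0.0352, edgeR, and 0.0669 with library size alone). Serum amyloid A1 (Saa1) stood at 62.9 and 48.2 CPM in WT and 75.3 and 109 CPM in KO, and the C-reactive protein gene (Crp) at 300 and 380 CPM in WT and 422 and 569 CPM in KO. Both were highest in KO replicate 2, as the fibrinogen chains were. That pattern was not particular to these genes. Outside the list, Alb (70110 CPM), Ahsg (9360 CPM) and Hpx (4345 CPM) were also highest in that library, while Apoa1 and Ttr were not. Within the list, Saa3 and Saa4 were highest in KO replicate 1 (5.65 and 281 CPM). The haptoglobin gene (Hp) had a log2 fold change of 0.10 and Saa4 one of 0.0035. The gene below was Cebpd, a transcription factor of the acute phase response, at 10.4 and 15.2 CPM in WT and 6.38 and 8.72 CPM in KO (-0.76, adjusted p = 0.259, edgeR). Orm2, Hamp and Lcn2 also had negative estimates, -0.18, -0.08 and -0.07, with overlapping libraries. The 10 Kupffer cell markers, of which none was at 0, summed to 160 and 239 CPM in WT and 346 and 372 CPM in KO, and all 10 had both KO libraries above both WT libraries (21.6% of all tested genes) and an unadjusted p under 0.05 (13% of all). Of them, 2 were called higher, Marco (adjusted p = 0.0155, edgeR) and Csf1r (adjusted p = 0.0478). With library size alone Marco was still called (0.0281, edgeR) and Csf1r was not (0.0738). The part of these cells and of an acute phase response in the fibrinogen values was not tested.

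Upstream sequence is shown for the 3 chains, whose estimates lay together, and for F11, which had the smallest p of the set. Each run is 120 bases, read 5′ to 3′ on the strand of the gene (RefSeq, GRCm38.p6), and ends just before the annotated start of the gene; for Fga that is 77 bases before the RefSeq start. Capitals mark matches, on either strand, to letters known from the sites of liver factors: TTGCNNAA for C/EBP, CAAAGTCCA for HNF4, TTCNNNGAA for STAT factors and CTGGGAA for the interleukin-6 element of acute phase genes.
Fga (chr3:83025956-83026075, plus strand): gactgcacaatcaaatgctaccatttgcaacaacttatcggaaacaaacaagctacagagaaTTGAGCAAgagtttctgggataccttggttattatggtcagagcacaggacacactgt
Fgb (chr3:83049864-83049983, minus strand): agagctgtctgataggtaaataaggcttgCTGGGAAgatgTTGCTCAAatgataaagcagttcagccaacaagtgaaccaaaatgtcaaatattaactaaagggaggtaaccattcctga
Fgg (chr3:83007604-83007723, plus strand): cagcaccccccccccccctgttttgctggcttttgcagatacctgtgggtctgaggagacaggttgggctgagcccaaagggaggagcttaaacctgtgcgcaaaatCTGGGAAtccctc
F11 (chr8:45262032-45262151, minus strand): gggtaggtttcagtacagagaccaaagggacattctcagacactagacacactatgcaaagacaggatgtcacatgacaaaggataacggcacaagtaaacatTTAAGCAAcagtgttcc
Matches to C/EBP were marked in Fga, Fgb and F11, and to the interleukin-6 element in Fgb and Fgg. A match is a description of the letters, and binding was not measured.

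Longer windows were searched over the set: 27 RefSeq windows of 250 bases before the start were read for 26 of the 33 listed genes, Klkb1 among them. The search left out windows of the set on chromosome 18, where Proc lies. The windows of all genes were not filtered by chromosome. The C/EBP letters were in 9 of 27 windows (33.3%), against 9.56% of all 32851 windows. The interleukin-6 element and the STAT letters were each in 4 of 27 (14.8%), against 9.10% and 7.02% of all windows. The HNF4 letters were in 0 (0.384% of all), a share so low that 27 windows cannot show a lack of them. Besides Fga and Fgb, the 4 windows with STAT letters were those of F9 and Pros1, and the 4 with the interleukin-6 element included F9 and Tfpi besides Fgb and Fgg. No window was read for Kng1, Plat, Plg, Proc, Serpina10, Thbd and Vwf.

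F11 encodes factor XI, the protease that activates factor IX and is itself activated by thrombin or factor XII, and it had the smallest p of the set. It stood at 60.8 and 48.1 CPM in WT and at 97.0 and 98.8 CPM in KO, from 2577 and 1832 reads against 4485 and 3955. Both KO libraries were above both WT libraries, and the KO libraries lay closer to each other than the WT libraries did. The log2 fold change was 0.85 (SE 0.191, 95% interval 0.40 to 1.29), or 1.80-fold, with an adjusted p of 0.0806 by edgeR and 0.0747 by limma-voom. DESeq2 called it (0.0107), as did edgeR without the filter on low counts (0.00324) and with WT replicate 1 left out (1.02 on the log2 scale, adjusted p = 0.0204). Without WT replicate 2 the estimate was 0.68 (adjusted p = 0.259), so the 2 WT libraries set its size. F11 lies on chromosome 8 from 45241174 to 45262031 (minus strand, mm10).

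The contact factors around it did not separate the genotypes. F12, whose protease starts contact activation on charged surfaces, stood at 482 and 527 CPM in WT and 484 and 483 CPM in KO (log2 fold change -0.06, 95% interval -0.45 to 0.32). Kng1, the source of bradykinin and the carrier of prekallikrein and factor XI, stood at 1996 and 1987 CPM in WT and 1942 and 2198 CPM in KO. Its close paralog Kng2 stood at 232 and 245 CPM in WT and 191 and 242 CPM in KO. The libraries of the genotypes overlapped for all 3 genes. Counting that drops reads shared by both kininogens would leave the levels of Kng1 and Kng2 uncertain.

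The genes at the start of the cascade had positive estimates, and none was called. F3 encodes tissue factor, the membrane receptor that starts clotting, and was covered by only 124 and 127 WT reads and 185 and 179 KO reads. It was higher in both KO libraries, with an estimate of 0.44 on the log2 scale (SE 0.245, adjusted p = 0.529, edgeR). F7, F10 and Proz are neighbours on chromosome 8, with 4.24 kb between F10 and Proz. F7 stood at 102 and 108 CPM in WT and 122 and 122 CPM in KO. F10, whose protease makes thrombin, stood at 522 and 629 CPM in WT and 627 and 826 CPM in KO. Proz, the cofactor through which an inhibitor acts on factor Xa, stood at 325 and 283 CPM in WT and 397 and 392 CPM in KO. These 3 neighbours had log2 fold changes of 0.22, 0.34 and 0.38 (SE 0.166, 0.204 and 0.171; adjusted p = 0.673, 0.569 and 0.415, edgeR). The libraries did not overlap for F7 and Proz and overlapped for F10.

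For prothrombin, F5, F9 and F13b the libraries of the genotypes overlapped. F2 stood at 1732 and 1939 CPM in WT and 1832 and 1939 CPM in KO, with a 95% interval of -0.36 to 0.44 on the log2 scale. F5, the cofactor of factor Xa, stood at 861 and 627 CPM in WT and 888 and 674 CPM in KO; replicate 2 was lower in both genotypes by more than the genotypes differed. F9, the protease lost in haemophilia B, stood at 203 and 209 CPM in WT and 181 and 213 CPM in KO. F13b, the carrier subunit of the enzyme that cross-links fibrin, stood at 201 and 246 CPM in WT and 205 and 275 CPM in KO. The log2 fold changes of F2, F5, F9 and F13b lay between -0.07 and 0.10, each within 1 SE of 0.

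F8 and Vwf, the genes of factor VIII and of its plasma carrier, were low and uneven. F8 stood at 6.93 and 7.17 CPM in WT and 8.37 and 4.90 CPM in KO. Vwf stood at 7.17 and 4.26 CPM in WT and 6.40 and 2.37 CPM in KO. Their log2 fold changes were -0.09 (SE 0.283) and -0.38 (SE 0.457), and neither was called. Without KO replicate 1, Vwf was called lower (-1.27, adjusted p = 0.0447, edgeR), while without WT replicate 1 it was 0.05 and without KO replicate 2 it was 0.15, so its direction hung on single libraries. The 12 endothelial markers, none of them at 0, summed to 233 and 296 CPM in WT and 292 and 225 CPM in KO. Their median log2 fold change was -0.02, with 5 positive, 7 negative and 0 called (1.91% of all tested genes). Both KO libraries were below both WT libraries for 2 of 12 (16.7%, against 20.4% of all) and above for 0 (21.6% of all). The 2 were Lyve1 (-1.40, adjusted p = 0.0623, edgeR) and Flt4 (-0.43, adjusted p = 0.468). Platelet and megakaryocyte markers summed to between 2.99 and 4.82 CPM in all libraries, only 3 of the 9 were tested, and Gp6 had no read in any library.

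**Figure D3:**
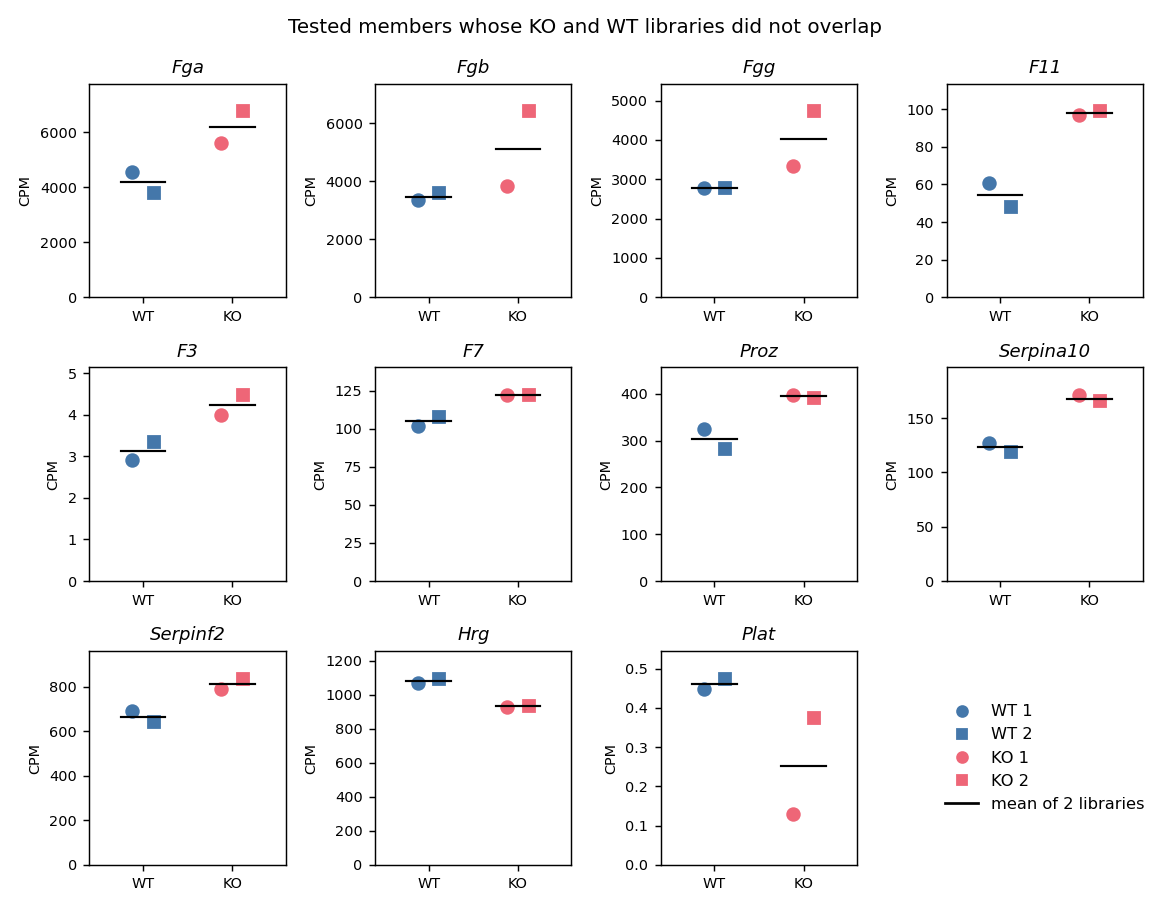
CPM in each library for the 11 tested genes whose WT and KO libraries did not overlap; circles are replicate 1, squares replicate 2, bars the mean of 2 libraries, and each axis starts at 0. KO lies higher in 9 panels and lower for Hrg and Plat, and the KO libraries of Fgb lie far apart (3838 and 6397).

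Among the inhibitors, Serpina10 and Proz, which act together, had the smallest p-values. Serpina10 encodes the protein Z-dependent inhibitor of factor Xa and stood at 127 and 119 CPM in WT and 171 and 166 CPM in KO. Its log2 fold change was 0.45 (SE 0.167, 95% interval 0.07 to 0.84, adjusted p = 0.296, edgeR), or 1.37-fold, and the ratio was 0.43 for replicate 1 over replicate 1 and 0.48 for replicate 2 over replicate 2. For Proz, given above, the ratios were 0.29 and 0.47. In both genes the 2 libraries of a genotype lay closer together than the genotypes did, and neither was called. Serpina10 and Serpina5 share a cluster of serpin genes on chromosome 12 but lie 470 kb apart.

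No difference was called for the main plasma inhibitors, whose estimates were close to 0. Serpinc1 encodes antithrombin, the chief inhibitor of thrombin and factor Xa, and stood at 2220 and 2704 CPM in WT and 2175 and 2744 CPM in KO. Its log2 fold change was -0.0012 with a 95% interval of -0.46 to 0.46, and replicate 2 was higher in both genotypes. Exons of Zbtb37 on the other strand overlap 34.4% of its exon bases, and Zbtb37 had at most 124 reads in a library. That count does not show whether reads shared by both genes were dropped, which would lower the Serpinc1 level. Serpind1, the gene of heparin cofactor II, stood at 522 and 625 CPM in WT and 546 and 660 CPM in KO. Proc, the gene of protein C, stood at 510 and 552 CPM in WT and 524 and 559 CPM in KO. Pros1, the gene of its cofactor protein S, stood at 51.5 and 46.4 CPM in WT and 47.0 and 43.1 CPM in KO. The libraries overlapped for all 4 genes, and their 95% intervals lay within 2-fold.

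Thbd and Tfpi, inhibitors made mainly by endothelium, were too low for narrow estimates. Thbd, the gene of thrombomodulin, which turns thrombin towards protein C, stood at 1.79 and 3.05 CPM in WT and 2.81 and 2.12 CPM in KO. Tfpi stood at 1.77 and 3.76 CPM in WT and 2.81 and 3.42 CPM in KO. The 95% intervals ran from -0.75 to 0.82 and from -0.69 to 1.05, and the libraries overlapped. Serpina5, the protein C inhibitor gene, was nearly absent, with 0 and 2 WT reads and 6 and 5 KO reads, and did not pass the filter on low counts. Its summed reads, scaled for library size, gave a KO over WT ratio of 5.13 (95% exact interval 1.12 to 47.6, for counting error alone).

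In fibrinolysis, Plg and Cpb2 overlapped between the genotypes, while Serpinf2 was higher and Hrg lower in both KO libraries, with no call. Plg, the plasmin precursor, stood at 3199 and 3107 CPM in WT and 3100 and 3489 CPM in KO, with a 95% interval of -0.33 to 0.46. Exons of Slc22a3 on the other strand overlap 11.3% of its exon bases, with at most 392 reads in a library against at least 118271 for Plg. Whether reads shared by both genes were dropped cannot be read from these counts. Cpb2, whose carboxypeptidase protects fibrin from plasmin, stood at 262 and 351 CPM in WT and 264 and 363 CPM in KO. Serpinf2, the gene of the plasmin inhibitor alpha 2-antiplasmin, stood at 688 and 640 CPM in WT and 791 and 833 CPM in KO (log2 fold change 0.29, SE 0.166, adjusted p = 0.542, edgeR). Hrg, which binds plasminogen, fibrinogen and heparin, stood at 1068 and 1093 CPM in WT and 932 and 937 CPM in KO (log2 fold change -0.21, SE 0.164, adjusted p = 0.684). Serpinf2 and Hrg missed the threshold with edgeR, with DESeq2 and with limma-voom. Hrg, Kng2 and Kng1 are neighbours on chromosome 16, with gaps of 24.2 and 28.4 kb, and had log2 fold changes of -0.21, -0.14 and 0.06.

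Plat, the gene of tissue plasminogen activator, was covered by 19 and 18 WT reads and 6 and 15 KO reads. Its log2 fold change of -0.88 was the lowest of the set, but its 95% interval ran from -2.34 to 0.58. Without KO replicate 1 it was -0.29 and without KO replicate 2 it was -1.81. At this depth a difference between the genotypes was not detectable for Plat.

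The 2 genes of the vitamin K cycle did not separate the genotypes. Ggcx encodes the carboxylase that modifies the vitamin K-dependent factors and stood at 72.0 and 44.6 CPM in WT and 61.3 and 35.4 CPM in KO. Replicate 2 was far lower than replicate 1 in both genotypes, by log2 ratios of -0.69 in WT and -0.79 in KO, while KO over WT was -0.27 (SE 0.316, adjusted p = 0.811, edgeR). Vkorc1 encodes the epoxide reductase that is the target of warfarin and stood at 24.3 and 29.6 CPM in WT and 27.2 and 24.7 CPM in KO (log2 fold change -0.05, 95% interval -0.50 to 0.39). Of its exon bases, 47.7% overlap Gm21974, which had 0 reads in all 4 libraries. Counting that drops reads shared by both genes would lower the Vkorc1 level, and the 0 reads do not show whether it did.

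By role, the medians lay close together. The median log2 fold change was 0.09 over 16 clotting factors, 0.05 over 8 tested inhibitors, 0.03 over 5 genes of fibrinolysis and -0.16 over the 2 vitamin K genes, against 0.06 for the set and 0.0058 over all tested genes. Positive values were found for 11 of 16 clotting factors, 6 of 8 inhibitors, 3 of 5 genes of fibrinolysis and 0 of 2 vitamin K genes. The clotting factors without the fibrinogen chains summed to 6408 and 6578 CPM in WT and 6587 and 7083 CPM in KO. The inhibitors summed to 3759 and 4337 CPM in WT and 3866 and 4570 CPM in KO, and the genes of fibrinolysis to 5218 and 5192 CPM in WT and 5086 and 5622 CPM in KO. In all 3 sums KO replicate 2 was the highest library, and the genotypes overlapped for the inhibitors and for fibrinolysis.

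Spread between libraries of the same genotype was as large as the differences between genotypes for many genes. Over the 31 tested genes, replicates 1 and 2 differed by a median log2 ratio of 0.16 in size within WT and 0.27 within KO, beside the 0.14 between genotypes. The measures are unlike: the first 2 compare single libraries, and the 0.14 is from estimates over 2 libraries of each genotype. Averaging evens out part of the spread. Vwf had ratios of -0.75 in WT and -1.43 in KO, Ggcx -0.69 and -0.79, and F5 -0.46 and -0.40, all lower in replicate 2 of both genotypes. Cpb2 had 0.42 and 0.46, F13b 0.30 and 0.43, and Serpinc1 0.28 and 0.34, all higher in replicate 2 of both genotypes. Across the 31 genes the WT and KO ratios correlated with r = 0.44 (Spearman rho 0.43), and the ratios correlated with log2 transcript length with r = -0.25 in WT and -0.36 in KO (rho -0.22 and -0.19). These are descriptions across genes of the same 4 libraries. The equal numbers are not known to mark a shared animal, litter or run.

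**Figure D4:**
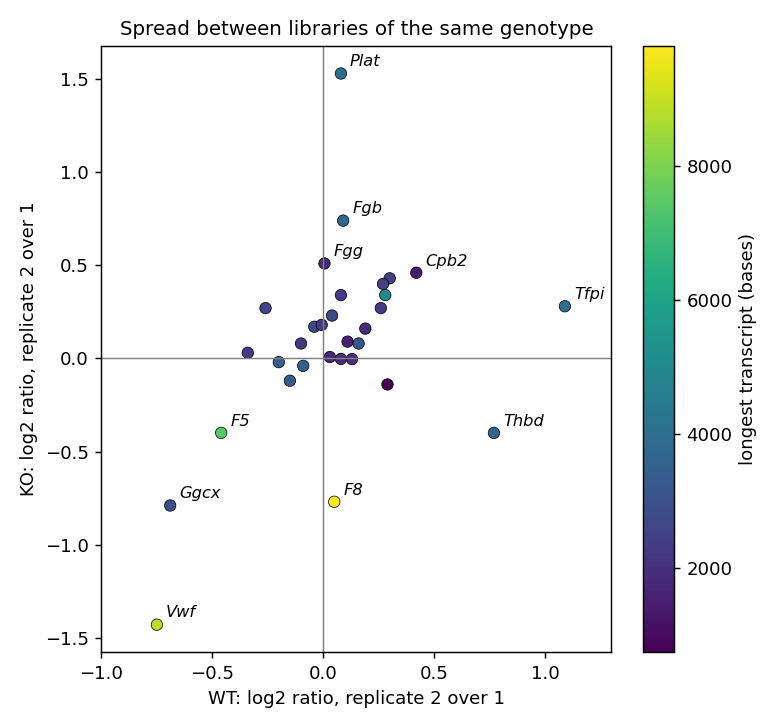
Log2 ratio of replicate 2 over replicate 1 in WT (horizontal) and in KO (vertical) for the 31 tested genes, coloured by longest transcript. Vwf, Ggcx and F5 lie low in both genotypes, while Fgb (0.09 in WT, 0.74 in KO) and Plat (0.08 and 1.53) had a far larger ratio in KO than in WT.

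Other genes of clotting and fibrinolysis were read from a list of 32, of which 27 were tested. By edgeR 1 was called higher and 0 lower, where 1.91% of all tested genes were called. Serpine2 encodes protease nexin 1, an inhibitor of thrombin and urokinase on cell surfaces, and rose from 15.8 and 18.0 CPM in WT to 37.0 and 37.5 CPM in KO. The log2 fold change was 1.14 (SE 0.182, adjusted p = 0.0250, edgeR), or 2.21-fold, and was called under all 10 alternatives, with adjusted p up to 0.0394. S100a10 and Anxa2 encode the partners of the complex that holds plasminogen at the cell surface. S100a10 stood at 118 and 172 CPM in WT and 53.0 and 75.0 CPM in KO (log2 fold change -1.18, adjusted p = 0.0712, edgeR), and Anxa2 at 14.8 and 28.3 CPM in WT and 7.89 and 8.57 CPM in KO (-1.39, adjusted p = 0.0740). DESeq2 called both (0.000760 and 0.000580). With single libraries left out S100a10 ran from -0.88 to -1.45, called except without KO replicate 1, and Anxa2 from -0.86 without WT replicate 2 (adjusted p = 0.0807, edgeR) to -1.78 without WT replicate 1 (4.64e-08), called except in the first of these fits. The median of the list was -0.05, and 5 of 27 (18.5%, against 13% of all tested genes) had an unadjusted p under 0.05.

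Transcription factors known to act on hepatocyte promoters were read from a list of 14. Of these, 0 were called by edgeR (1.91% of all tested genes), 2 by DESeq2 (4.15% of all) and 0 by limma-voom (1.86% of all). An unadjusted p under 0.05 was found for 3 of 14 (21.4%, against 13% of all). Onecut1 (HNF6) stood at 2.90 and 1.63 CPM in WT and 12.2 and 5.37 CPM in KO (log2 fold change 1.96, adjusted p = 0.0806, edgeR; 0.000171 by DESeq2). Its estimate ran from 1.24 without KO replicate 1 to 2.43 without WT replicate 1, and it was called in each of the 4 fits that left out a library. Foxa3 stood at 27.3 and 32.0 CPM in WT and 44.3 and 65.4 CPM in KO (0.89, adjusted p = 0.127; 0.0244 by DESeq2), and was called without WT replicate 2 (adjusted p = 0.0292, edgeR) and without KO replicate 1 (0.00611). Stat3, which carries the interleukin-6 signal to acute phase genes, stood at 97.7 and 81.3 CPM in WT and 135 and 130 CPM in KO (0.57, adjusted p = 0.212). Over the list, both KO libraries were above both WT libraries for 6 of 14 (42.9%, against 21.6% of all tested genes), these 3, Hnf4a and Foxa1 among them. They were below for 2 of 14 (14.3%, against 20.4% of all), Nr1i3 and Foxa2, with log2 fold changes of -0.32 and -0.19. Hnf4a stood at 695 and 611 CPM in WT and 802 and 821 CPM in KO. Cebpa and Cebpb overlapped between the genotypes, with log2 fold changes of 0.16 and -0.37.

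Transcripts of secreted hepatocyte proteins outside clotting were read from a list of 14. Of 14 tested, 12 had a positive log2 fold change (7027 of 13836 over all tested genes), and the median was 0.19. By edgeR, DESeq2 and limma-voom 0 were called (1.91%, 4.15% and 1.86% of all). Both KO libraries were above both WT libraries for 6 of 14 (42.9%, against 21.6% of all). They were below for 1 of 14 (7.14%, against 20.4% of all). At an unadjusted p under 0.05 there were 2 of 14 (14.3%, against 13% of all). These were Ahsg, the fetuin A gene (0.48, adjusted p = 0.341), and the apolipoprotein gene Apoc3 (-0.43, adjusted p = 0.384). Summed, the 14 took 9.44% and 9.73% of the counts in WT and 10.6% and 10.9% in KO. Alb alone stood at 53495 to 70110 CPM over the 4 libraries, within sums of 91979 to 111624 CPM. The estimates of the fibrinogen chains, 0.54 to 0.56, lay above the highest of this list, 0.48, and that of F2, 0.04, lay below its median. Genes of secreted proteins on the other lists had estimates above the chains, Lbp with 0.77, Saa1 with 0.73 and Fgl1 with 0.68. None of the 3 was called in the main edgeR fit. Others there were lower, such as Hp with 0.10. The difference between the lists was not tested.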

How the data were processed

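The authors deposited raw read counts by Ensembl gene, 1 table for each library. TopHat2 2.1.1, HTSeq 0.6.0 and the build mm10 are named in the submitters' processing notes; which annotation and options they used is not given in the sources used here. Per the labels' protocols the kit was TruSeq v2, which does not mark strand, so reads of overlapping genes on opposite strands cannot be told apart. From these counts, KO was compared with WT in edgeR 4.0.16 (R 4.3.3) across all genes kept by filterByExpr (minimum count 10, minimum total 15), with TMM scaling, a robust quasi-likelihood F test and no term besides genotype. Benjamini-Hochberg adjustment ran over the 13836 tested genes, with calls at an adjusted p under 0.05. SE is the size of the log2 fold change over the square root of F, and 95% intervals use the t distribution with the fit's total degrees of freedom. At these totals 1 read is 0.0216 to 0.0263 CPM. Replicate pairs differed beyond counting noise (chi-square per degree of freedom 86.5 in WT and 101 in KO), and each library was 1 replicate. The fit was tested on simulated counts.

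Symbols, positions and lengths are from GENCODE M21, built on the same assembly, which named 35533 of 37315 identifiers. Alternatives were other scalings, no filter, DESeq2 1.42.0, limma-voom (limma 3.58.1), a replicate block and leaving out each library. The genes and lists were chosen with earlier results of these data known, and the acute phase list after the fibrinogen values. Genes named with full statistics are those called or the 2 with the smallest p in each role, with fibrinogen chains and neighbours added; of other lists, called genes or up to 3 with the smallest p, and others chosen after their values were seen.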

Additional observations from a re-analysis of the deposited data

How the results depend on the processing

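The count of called genes of the set moved from 0 to 1 (F11) with DESeq2 and with no filter, and lay between 0 and 1 when single libraries were left out: F11 without WT replicate 1 and Vwf without KO replicate 1. With no filter that was 1 of 32 genes of the set, where 829 of all 22419 genes were called. With a replicate block the count was 8 of 31, where 2729 of all 13836 tested genes were called. Of the 8, 7 were higher (F11, Fga, Fgg, F10, Proz, Serpina10 and Serpinf2) and Ggcx was lower. Deviations of equal-numbered libraries correlated with r = 0.427 across genes, but the labels give no pairing and 2 pairs cannot settle one. Over all genes the count of 264 became 829 with no filter, 574 with DESeq2, and 460 to 633 without single libraries. Other scalings left the set at 0, and the median over all genes stayed between -0.02 and 0.03. The set's median of 0.06 ran from -0.03 without WT replicate 1 to 0.15 without KO replicate 1, so its sign is not settled.

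Of 31 tested genes, 14 kept their sign under all 10 alternatives, F11, the fibrinogen chains, Serpina10, Proz, Serpinf2 and Hrg among them. The other 17 changed sign under at least one alternative, in no case with a call on the changed side. Over the fits that left out single libraries, the log2 fold change ran from -0.04 to 0.11 for F2, -0.15 to 0.32 for F5, -0.52 to 0.24 for F8, -0.19 to 0.05 for F9, -0.13 to 0.30 for F13b, -0.03 to 0.08 for Proc, -0.19 to 0.16 for Serpinc1, -0.08 to 0.20 for Serpind1, -0.03 to 0.15 for Plg, -0.04 to 0.15 for Kng1, -0.33 to 0.02 for Kng2, -0.22 to 0.25 for Cpb2, -1.27 to 0.15 for Vwf, -0.30 to 0.45 for Thbd, -0.27 to 0.81 for Tfpi, -0.72 to 0.11 for Ggcx and -0.19 to 0.09 for Vkorc1. Serpinc1 was also 0.02 with library size alone and 0.00076 with no filter. The cause was not tested. A fit without a library leaves 1 in its genotype, which is assumed to vary like the other genotype. Few reads limit what can be said of Serpina5 (0 to 6 a library) and Plat (6 to 19).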
